A study of Meriones unguiculatus and Mus musculus with 2 samples.

Results

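The genes described here are the Toll-like receptors, the NOD-like receptors and other inflammasome genes, and the genes of the NF-kB pathway, in wounded skin of a gerbil and of a mouse 3 days after wounding. They were chosen by name alone: every gene of the deposited table whose symbol starts with Tlr, Nlrp, Nlrc, Irak or Naip followed by a digit, and a fixed set of named adaptors, caspases, NF-kB subunits, IkB proteins and kinases. This gave 70 of the 41214 genes in the table. The samples were 1 library of a Mongolian gerbil (Meriones unguiculatus, no strain given in the labels) and 1 library of Mus musculus of the outbred ICR stock. Both came from total RNA of tissue labelled wounded dermis and had the same treatment, wounding. The labels give neither age, sex nor the number of animals behind a library, and they name no unwounded skin or other time. With 1 library per species there is no replicate error, no test and no p-value. Every difference below describes these libraries, and species, animal and library cannot be told apart.

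Toll-like receptors recognise microbial products and molecules released by damaged cells. Most of them signal through the adaptor Myd88 and the IRAK kinases to the IkB kinase complex, which marks IkB proteins for destruction and so frees NF-kB dimers to enter the nucleus. NOD-like receptors detect danger inside the cell, and some of them assemble with Pycard and Casp1 into inflammasomes that mature interleukin-1 beta and interleukin-18. In a fresh skin wound these genes are used by keratinocytes, fibroblasts and arriving neutrophils and macrophages.

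Values of both libraries were FPKM, a count of fragments corrected for the length of the transcript and the size of the library. Levels set between genes below are on this scale per length. Between the libraries the scale also depends on assembly and matching, which applied to gerbil only. The gerbil values stand under a header for expression measured after assembly, and each has an expectation value, the usual measure of a sequence match, where 0 is the strongest. Each was taken as the level of an assembled gerbil sequence that had been matched to a mouse gene. Several mouse genes can therefore carry the same gerbil value, and since gerbil values have 2 decimals, low values also coincide by rounding. A gerbil value listed for no other gene is called an own value below. Each gene of the set with an own value is marked so where its levels are given. The other 39 genes of the set with a gerbil value shared it with at least 1 gene. Differences are of log2(FPKM + 1), gerbil minus ICR, which understates the difference of genes near 0. Measured genes are those with a value in each library and 1 FPKM or more in at least 1 of them, and 4-fold on this scale was used as a rule of size.

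Of the 70 genes, 50 had a value in both libraries, and all of these were measured. The other 20 had an ICR value and no gerbil match. By the size rule 8 of the 50 were higher in gerbil and 8 lower, 16% each. Over all 20089 measured genes, pseudogenes included, 25.9% passed the rule on the gerbil side and 5.56% on the ICR side. Among the 42 of the 50 that are protein-coding and matched with an expectation value of 0, 4 were higher and 6 lower (9.52% and 14.3%), beside 6.1% and 5.99% of all 11152 such genes. The median difference of the 50 was 0.37, beside 0.87 over all measured genes. In the stricter class it was 0.31 for the 42 and 0.21 for all. The median of the 50 was below 0, at -0.041, under a trimmed mean scaling, with 4 genes higher and 10 lower, and at -0.183 with a floor of 5 FPKM. With a pseudocount of 5 FPKM in place of 1, 3 were higher and 1 lower. The genes higher in gerbil were Tlr4, Rel, Irak4, Nlrc3, Naip1, Naip3, Nlrp1a and Nlrp1c-ps, of which Tlr4 and Rel had an own gerbil value. Own values matched with an expectation value of 0 were held by 11 genes of the set, 2 of them higher (18.2%) and 0 lower, beside 5.04% higher and 1.56% lower of the 1607 such genes in the table. The genes lower in gerbil were Tlr1, Tlr6, Tlr13, Ly96, Tirap, Irak1, Nlrc5 and Nfkb2. All 8 lower genes were under 3 FPKM in gerbil and none had an own value, although 6 were matched with an expectation value of 0. All 11 own values were at 10 FPKM or more in gerbil. None of the 29 genes under 10 FPKM in gerbil had one, so own values were found only among the genes more abundant in gerbil. Low values also coincide by rounding, and lacking an own value does not by itself mark a weaker match. In bulk tissue, fewer cells of a type and less RNA per cell cannot be told apart.

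**Figure D1:**
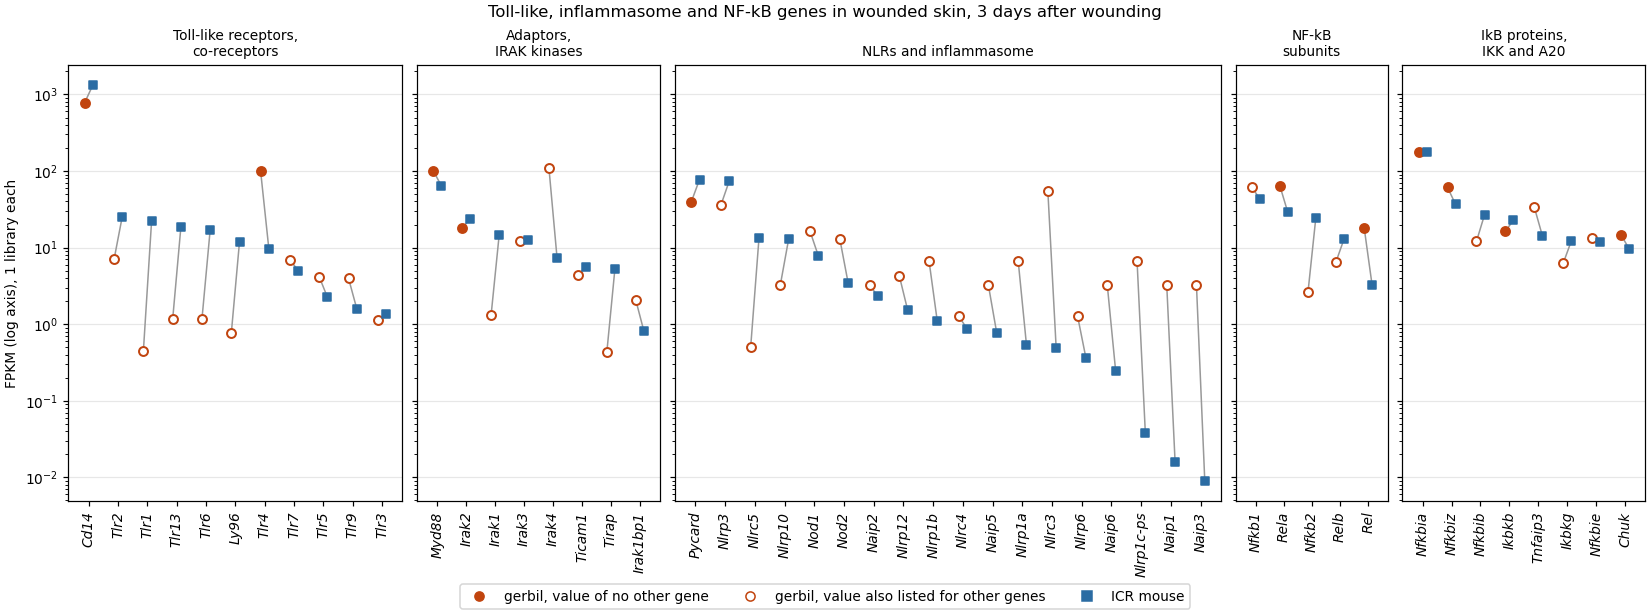
FPKM on a log axis of the 50 genes with a value in both libraries, by role and, within a role, in the order of the ICR level. Each gene has its gerbil value (circle, filled where the value is listed for no other gene) on the left and its ICR value (square) on the right, 1 library each. Tlr4 stands at 99.6 FPKM in gerbil, against 9.70 FPKM in ICR, while Tlr1, Tlr6 and Tlr13 lie near or under 1 FPKM in gerbil and near 20 FPKM in ICR.

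The surface receptors of bacterial products carried the widest contrast among the Toll-like receptors. Tlr4 recognises lipopolysaccharide, Tlr2 recognises lipoproteins, and Tlr1 and Tlr6 pair with Tlr2. Their coding sequences matter here because the gerbil values depend on sequence matches. In the mouse annotation (GENCODE M21, GRCm38), Tlr1 and Tlr6 were identical at 73.8% of their aligned coding bases, and every other pair of these 4 genes at 40.2% to 46.5%. The 120 bases most shared by the 4 genes lie in the stretch that codes for the intracellular TIR domain, the part that binds the adaptors. They are shown 5′ to 3′ on the coding strand, with the 46 bases shared by all 4 in capitals:
Tlr4: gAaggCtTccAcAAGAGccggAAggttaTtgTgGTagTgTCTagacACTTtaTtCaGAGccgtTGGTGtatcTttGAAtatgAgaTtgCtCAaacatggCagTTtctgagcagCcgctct
Tlr2: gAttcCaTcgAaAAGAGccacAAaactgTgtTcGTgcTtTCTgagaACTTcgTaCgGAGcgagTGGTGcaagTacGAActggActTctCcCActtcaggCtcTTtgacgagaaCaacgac
Tlr1: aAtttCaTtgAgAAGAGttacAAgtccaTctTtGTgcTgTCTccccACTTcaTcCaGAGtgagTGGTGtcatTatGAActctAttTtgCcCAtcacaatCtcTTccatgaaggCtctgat
Tlr6: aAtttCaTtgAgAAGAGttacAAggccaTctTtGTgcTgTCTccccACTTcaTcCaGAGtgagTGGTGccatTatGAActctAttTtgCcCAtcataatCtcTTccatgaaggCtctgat

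Tlr1 and Tlr6, neighbours on chromosome 5, also share an unbroken run of 229 coding bases, which is shown because a mouse fragment from within it fits both genes equally. It spans coding bases 1468 to 1696 of Tlr1 and 1507 to 1735 of Tlr6.
Tlr1 and Tlr6: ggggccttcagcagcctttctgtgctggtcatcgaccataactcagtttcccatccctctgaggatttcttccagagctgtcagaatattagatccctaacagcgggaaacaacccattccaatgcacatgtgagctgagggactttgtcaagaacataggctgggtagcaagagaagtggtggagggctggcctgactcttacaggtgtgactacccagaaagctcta

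Tlr4 (chromosome 4, 66827584 to 66930284, plus strand, GRCm38) was at 99.6 FPKM in the gerbil library, against 9.70 FPKM in the ICR library. The gerbil value was its own and matched with an expectation value of 0. The log2 difference was 3.23, or 9.40-fold on FPKM + 1, which placed Tlr4 at rank 276 from the top of the 11152 protein-coding genes matched with an expectation value of 0. Of the 2 co-receptors in the set, both lay on the ICR side, while Lbp, the plasma protein that carries lipopolysaccharide to Cd14 and belongs to the partner list, was at 93.0 FPKM in gerbil and 49.9 FPKM in ICR (own value). Cd14, the co-receptor that hands lipopolysaccharide to the receptor, was the most abundant of the 50 genes in both libraries, at 784 FPKM in gerbil and 1332 FPKM in ICR (own value, log2 difference -0.76). Ly96, the secreted protein also known as MD-2 that holds lipopolysaccharide in the Tlr4 pocket, was at 0.76 FPKM in gerbil and 11.9 FPKM in ICR. The Ly96 match was weak, with an expectation value of 2e-07, and 13 other genes carried the same gerbil value. Its log2 difference was -2.88.

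Tlr2 was at 7 FPKM in gerbil and 25.3 FPKM in ICR, a log2 difference of -1.72. This is within 4-fold as deposited, but past it at -2.16 under the trimmed mean scaling and -2.03 under the housekeeping scaling. Its partners were further apart: Tlr1 was at 0.44 FPKM in gerbil and 21.97 FPKM in ICR, with a log2 difference of -3.996. Tlr6 was at 1.18 FPKM in gerbil and 17.1 FPKM in ICR, with a log2 difference of -3.06. All 3 were matched with an expectation value of 0, and their gerbil values were also listed for 13, 6 and 23 other genes. In ICR the 3 genes lay close together, while in gerbil Tlr2 stood above both partners. Tlr4 exceeded Tlr2 in gerbil by a ratio of 14.2, whereas in ICR the ratio of Tlr4 to Tlr2 was 0.383.

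Of the receptors of nucleic acids and of flagellin with both values, all but Tlr13 were low in both libraries. Tlr7, which senses single-stranded RNA in endosomes, was at 6.94 FPKM in gerbil and 5.01 FPKM in ICR, a log2 difference of 0.40 that changed side under a trimmed mean scaling. Tlr5, the flagellin receptor, was at 4.15 FPKM in gerbil and 2.24 FPKM in ICR. Tlr9, the receptor of unmethylated CpG DNA, was at 3.95 FPKM in gerbil and 1.59 FPKM in ICR. Tlr3, the receptor of double-stranded RNA, was at 1.12 FPKM in gerbil and 1.37 FPKM in ICR, on a match with an expectation value of 4e-120. These 4 log2 differences lay between -0.16 and 0.93. Tlr13, which senses bacterial ribosomal RNA in mice, was apart from them at 1.16 FPKM in gerbil and 18.5 FPKM in ICR, a log2 difference of -3.17. The Tlr13 match had an expectation value of 1e-15, and 19 other genes carried its gerbil value. Tlr8, Tlr11 and Tlr12 had no gerbil match; Tlr8 was at 2.77 FPKM in ICR and the other two were under 0.1 FPKM.

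**Figure D2:**
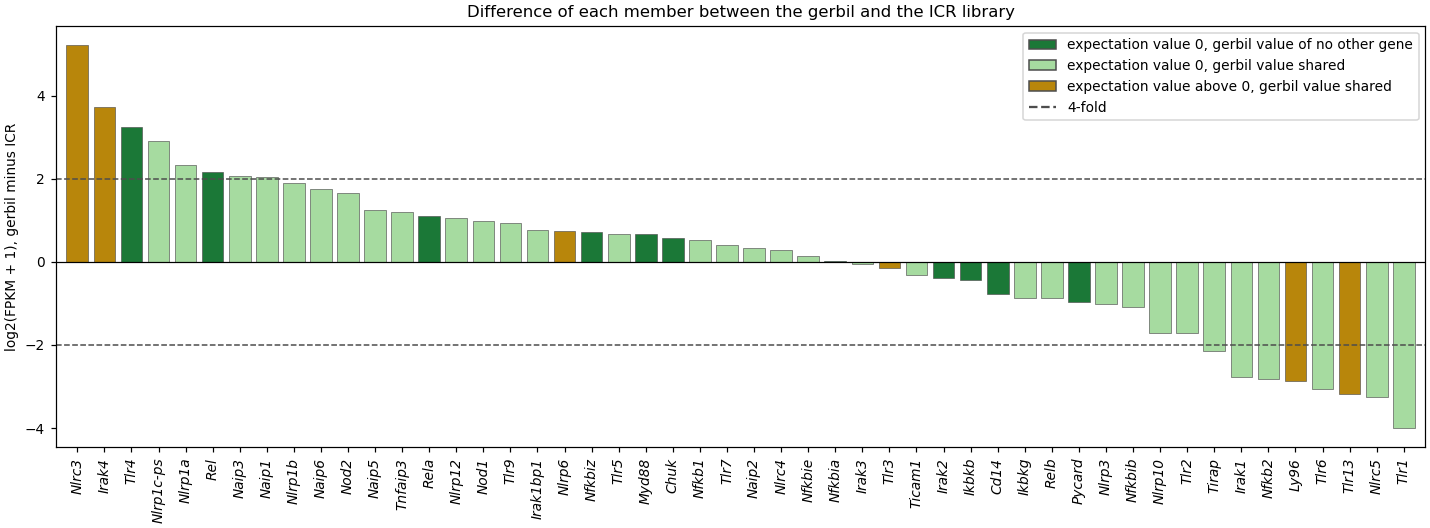
Difference of log2(FPKM + 1), gerbil minus ICR, for the 50 genes, from the highest to the lowest. Bar colour gives the strength of the match and whether the gerbil value is listed for other genes, and dashed lines mark 4-fold. Among the genes past 4-fold on the gerbil side only Tlr4 and Rel have an own value, and no gene past 4-fold on the ICR side has one.

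The 11 measured receptors and co-receptors comprised 4 above 0 and 7 below, with a median of -0.76. By the size rule 1 was higher and 4 were lower. These are 9.09% and 36.4%, beside 25.9% and 5.56% of all measured genes.

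Downstream of the receptors, 3 of the 8 adaptors and IRAK genes were above 0 and 5 below, with a median of -0.18. By the size rule 1 was higher and 2 were lower (12.5% and 25%, beside 25.9% and 5.56% of all measured genes). Myd88, used by nearly all Toll-like receptors, was at 102 FPKM in gerbil and 64.0 FPKM in ICR (own value, log2 difference 0.66). Tirap, which recruits Myd88 to Tlr2 and Tlr4 at the membrane, was at 0.43 FPKM in gerbil and 5.29 FPKM in ICR (log2 difference -2.14, gerbil value shared with 5 other genes). Ticam1, also known as TRIF, the adaptor of Tlr3 and of endosomal Tlr4, was at 4.34 FPKM in gerbil and 5.65 FPKM in ICR.

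Of the IRAK kinases, Irak1, Irak2 and Irak3 lay below 0, and Irak4 was listed above it. Irak2, which sustains signalling, was at 18.1 FPKM in gerbil and 23.8 FPKM in ICR (own value, log2 difference -0.38). Irak3, the inhibitory member also called IRAK-M, was nearly level at 12.1 FPKM in gerbil and 12.6 FPKM in ICR. Irak1 was at 1.31 FPKM in gerbil and 14.7 FPKM in ICR, a log2 difference of -2.76 on an expectation value of 0, with 29 other genes at the same gerbil value. Irak2 exceeded Irak1 by a ratio of 13.8 in gerbil and of 1.63 in ICR. Irak1bp1, which codes for a protein that binds Irak1, was at 2.07 FPKM in gerbil and 0.815 FPKM in ICR.

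Irak4, the kinase that receives the signal from Myd88, was listed at 109 FPKM in gerbil and 7.32 FPKM in ICR, a log2 difference of 3.72. Its match had an expectation value of 5e-59, and the same gerbil value was listed for Twf1 and for the pseudogene Gm4887, both with an expectation value of 0. Twf1, an actin-binding protein unrelated to this pathway, adjoins Irak4 on chromosome 15 with 0 bases between the gene spans, and it was at 122 FPKM in ICR. The gerbil value is thus closer to the ICR level of Twf1 than to that of Irak4. Which gene the assembled gerbil sequence belongs to was not tested, and this Irak4 value is given as listed only. Likewise Nlrc3, a NOD-like receptor that restrains T cell activation, was listed at 54.2 FPKM in gerbil and 0.482 FPKM in ICR, the highest difference among the 50 genes at 5.22. Its expectation value was 8e-28, and of the 44 other genes with that gerbil value 40 had a lower one. Among them Chrm1 had the lowest expectation value, 1e-52, and was listed at 0 in ICR. Vps29, a subunit of the retromer with an expectation value of 2e-48, was at 55.1 FPKM in ICR. Which gene this gerbil value belongs to was not tested.

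Of the inflammasome core, the sensor Nlrp3 and the adaptor Pycard had values in both libraries, and both were lower in gerbil by about the same factor. Nlrp3, the sensor of membrane damage and crystals, was at 36.03 FPKM in gerbil and 74.1 FPKM in ICR, with a log2 difference of -1.02, and shared its gerbil value with 1 other gene. Pycard, also known as ASC, the adaptor that links sensors to Casp1, was at 39.3 FPKM in gerbil and 77.4 FPKM in ICR (own value, log2 difference -0.96). The ratio of Nlrp3 to Pycard was 0.916 in gerbil and 0.957 in ICR. The enzymes that act after them could not be compared. Casp1, which cleaves pro-interleukin-1 beta, was at 11.7 FPKM in ICR, and Casp4, called caspase-11 in mice and activated by lipopolysaccharide inside the cell, at 14.5 FPKM. Aim2, the sensor of DNA in the cytosol, was at 5.67 FPKM in ICR. None of these 3 had a gerbil match.

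Of the sensors that work through other routes, Nod1 and Nod2, the receptors of peptidoglycan fragments, lay on the gerbil side. Nod1 was at 16.2 FPKM in gerbil and 7.75 FPKM in ICR, and Nod2 at 12.9 FPKM in gerbil and 3.45 FPKM in ICR, with log2 differences of 0.98 and 1.65. Nlrc5, the transactivator of MHC class I genes, was at 0.5 FPKM in gerbil and 13.3 FPKM in ICR, with a log2 difference of -3.25. Nlrp10, which lacks the leucine-rich repeats of its relatives and is found in epidermis, was at 3.28 FPKM in gerbil and 13.05 FPKM in ICR (log2 difference -1.71, past 4-fold at -2.10 under the trimmed mean scaling). Nlrp12, a receptor of myeloid cells, was at 4.3 FPKM in gerbil and 1.54 FPKM in ICR. The gerbil values of Nod1, Nod2, Nlrc5, Nlrp10 and Nlrp12 were also listed for 4, 2, 6, 8 and 13 other genes. Nlrc4, the partner of the NAIP receptors, was at 1.27 FPKM in gerbil and 0.874 FPKM in ICR. Nlrp6 carried the same gerbil value of 1.27 FPKM, on an expectation value of 6e-118, and was at 0.363 FPKM in ICR.

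The NAIP and NLRP1 genes show what a shared value does to the count. The NAIP receptors bind flagellin and parts of bacterial secretion needles, and the mouse has several copies side by side on chromosome 13. Naip1, Naip2, Naip3, Naip5 and Naip6 were all listed at 3.21 FPKM in gerbil, with an expectation value of 0 for each. In ICR Naip2 was at 2.33 FPKM, Naip5 at 0.766 FPKM, Naip6 at 0.246 FPKM, Naip1 at 0.0160 FPKM and the pseudogene Naip3 at 0.00892 FPKM. The 5 log2 differences, from 0.34 for Naip2 to 2.06 for Naip3, thus follow the ICR value alone, and that of Naip2 changed side under a trimmed mean scaling. Naip1 and Naip3 were under 4-fold under all 3 scalings, at log2 differences of 1.67 to 1.83, and with a pseudocount of 5 FPKM. How near these copies are is seen in 120 bases from the middle of the aligned mouse coding sequences, where capitals mark the 16 positions that differ in at least 1 gene:
Naip1: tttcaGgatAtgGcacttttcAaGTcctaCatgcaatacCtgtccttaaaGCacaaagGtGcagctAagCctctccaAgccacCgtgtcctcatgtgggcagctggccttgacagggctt
Naip2: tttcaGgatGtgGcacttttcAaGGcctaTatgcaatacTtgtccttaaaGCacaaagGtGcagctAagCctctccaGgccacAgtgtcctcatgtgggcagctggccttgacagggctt
Naip5: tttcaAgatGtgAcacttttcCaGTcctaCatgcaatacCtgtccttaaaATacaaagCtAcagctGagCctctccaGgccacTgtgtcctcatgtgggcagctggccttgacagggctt
Naip6: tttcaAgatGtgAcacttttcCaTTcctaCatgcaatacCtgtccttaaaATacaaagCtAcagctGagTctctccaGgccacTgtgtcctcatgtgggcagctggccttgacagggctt

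Over their whole aligned coding sequences these NAIP pairs were identical at 89.5% to 97.0% of bases, the nearest pair being Naip5 and Naip6. The NLRP1 genes on chromosome 11 form a second such cluster, of sensors that are cleaved by bacterial proteases. Nlrp1a, Nlrp1b and the pseudogene Nlrp1c-ps were each listed at 6.77 FPKM in gerbil, against 0.537, 1.09 and 0.0377 FPKM in ICR, with log2 differences of 2.34, 1.90 and 2.90. Nlrp1a was under 4-fold, at 1.896, under the trimmed mean scaling. Nlrp1a and Nlrp1b were identical at 85.9% of aligned coding bases. In the 120 bases from the middle of their alignment, capitals mark the 25 positions that differ:
Nlrp1a: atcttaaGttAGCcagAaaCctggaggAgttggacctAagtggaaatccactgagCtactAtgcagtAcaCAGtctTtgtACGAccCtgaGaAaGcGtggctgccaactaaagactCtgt
Nlrp1b: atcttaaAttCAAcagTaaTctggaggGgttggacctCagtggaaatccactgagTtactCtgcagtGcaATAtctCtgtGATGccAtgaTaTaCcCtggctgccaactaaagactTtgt

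The 18 NOD-like receptor and inflammasome genes with both values therefore held 11 distinct gerbil values. Of the 18, 14 were above 0 and 4 below, with 5 higher and 1 lower by the size rule and a median of 1.16. These shares of 27.8% and 5.56% stood beside 25.9% and 5.56% of all measured genes, whose median was 0.87. The 5 higher ones were Nlrc3 and 4 copies of the NAIP and NLRP1 clusters. With the copy highest in ICR standing for each cluster, an alternative chosen after seeing the data, 4 genes in place of 8 were higher over the whole set. Another 14 Nlrp genes had no gerbil match. Of these, 13 were listed at 0 in ICR too and Nlrp5-ps was at 0.114 FPKM; Nlrp2, Nlrp4, Nlrp5, Nlrp9 and Nlrp14 relatives are known mainly from egg cells and early embryos. The RefSeq annotation of the gerbil genome (Bangor_MerUng_6.1) holds the symbols of 40 of the 50 genes with both values. It also holds 4 of the 20 without a gerbil match, namely Casp1, Nlrp2, Nlrp5 and Nlrp14.

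The 5 NF-kB subunits lay in different places. All share the Rel homology domain, which binds DNA and joins the subunits into dimers. Rela, Rel and Relb also carry an activation domain, while Nfkb1 and Nfkb2 are precursors of p50 and p52. The 90 coding bases most shared by the 5 mouse genes lie near the start of that domain, and they are shown with the 42 bases common to all in capitals:
Rel: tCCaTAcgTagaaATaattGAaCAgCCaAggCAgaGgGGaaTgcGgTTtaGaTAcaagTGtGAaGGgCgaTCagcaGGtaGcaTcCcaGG
Rela: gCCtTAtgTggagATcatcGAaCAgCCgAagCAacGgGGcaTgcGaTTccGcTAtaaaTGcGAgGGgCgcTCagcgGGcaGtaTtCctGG
Relb: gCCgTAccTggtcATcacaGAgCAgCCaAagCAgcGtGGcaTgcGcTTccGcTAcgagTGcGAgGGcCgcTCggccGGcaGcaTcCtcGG
Nfkb1: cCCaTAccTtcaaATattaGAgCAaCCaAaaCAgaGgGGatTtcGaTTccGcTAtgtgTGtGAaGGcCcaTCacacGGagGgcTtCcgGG
Nfkb2: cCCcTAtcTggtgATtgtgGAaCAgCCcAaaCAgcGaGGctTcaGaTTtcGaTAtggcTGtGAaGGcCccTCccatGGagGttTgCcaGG

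Nfkb1 and Nfkb2 were the nearest pair, identical at 55.2% of aligned coding bases, and the 5 subunits carried 5 distinct gerbil values. Rel, the subunit c-Rel (chromosome 11, 23741514 to 23770970, minus strand, GRCm38), was at 17.96 FPKM in gerbil and 3.24 FPKM in ICR. The gerbil value was its own, and the log2 difference was 2.16. Rela, the subunit p65 (chromosome 19, 5637483 to 5648130, plus strand), was at 64.3 FPKM in gerbil and 29.2 FPKM in ICR, also with an own value and with a log2 difference of 1.11. Nfkb1 was at 62.4 FPKM in gerbil and 43.3 FPKM in ICR (log2 difference 0.52, gerbil value shared with 2 other genes). These 3 make the dimers of the canonical pathway, and all 3 were on the gerbil side as deposited. Nfkb1 was nearly level under the trimmed mean scaling, at 0.008, and at 0.16 under the housekeeping scaling. The Rel difference was under 4-fold under each of the 3 scalings and with a pseudocount of 5.

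The subunits of the non-canonical pathway lay on the ICR side. Nfkb2 (chromosome 19, 46304737 to 46312090, plus strand) was at 2.6 FPKM in gerbil and 24.6 FPKM in ICR, a log2 difference of -2.83 on an expectation value of 0, with 10 other genes at the same gerbil value. Relb, its usual partner, was at 6.57 FPKM in gerbil and 12.9 FPKM in ICR, a log2 difference of -0.87. Its gerbil value was also listed for 6 other genes. Within gerbil, Nfkb1 exceeded Nfkb2 by a ratio of 24.0, beside 1.76 in ICR. The ratio of Rela to Rel was 3.58 in gerbil and 9.01 in ICR.

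The inhibitors and kinases around NF-kB were the most even group, with 5 of 8 above 0, 3 below and a median of 0.07. By the size rule 0 passed 4-fold, beside 25.9% higher and 5.56% lower of all measured genes. All 8 are protein-coding and matched with an expectation value of 0. Of all such genes only 6.1% were higher and 5.99% lower, so 0 of 8 is not unusual. Nfkbia, the IkB alpha that NF-kB induces to shut itself off, was the second most abundant of the 50 genes in both libraries, at 177 FPKM in gerbil and 175 FPKM in ICR (own value). Nfkbie, or IkB epsilon, was at 13.2 FPKM in gerbil and 11.9 FPKM in ICR. These log2 differences of 0.01 and 0.13 changed side under all 3 scalings. Nfkbib, or IkB beta, was at 12.0 FPKM in gerbil and 26.8 FPKM in ICR (log2 difference -1.09). Nfkbiz, the nuclear IkB zeta that acts with p50 on a second wave of genes including Il6, was at 61.2 FPKM in gerbil and 36.6 FPKM in ICR (own value, log2 difference 0.72). Tnfaip3, or A20, the deubiquitinase that ends the signal, was at 33.7 FPKM in gerbil and 14.2 FPKM in ICR (log2 difference 1.19).

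Of the IkB kinase complex, Ikbkb, the kinase of the canonical pathway, was at 16.4 FPKM in gerbil and 22.7 FPKM in ICR (own value, log2 difference -0.45). Chuk, or IKK alpha, the kinase that starts Nfkb2 processing, was at 14.6 FPKM in gerbil and 9.57 FPKM in ICR (own value, log2 difference 0.56). The ratio of Ikbkb to Chuk was 1.12 in gerbil and 2.37 in ICR. Ikbkg, or NEMO, the regulatory subunit, was at 6.26 FPKM in gerbil and 12.2 FPKM in ICR.

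Ratios between genes within a library do not depend on how the libraries are scaled to each other. In gerbil they still depend on assembly and matching. Of the ratios computed, the largest contrasts were those of Tlr4 to Tlr2, above, and of Rela to Nfkb2, at 24.7 in gerbil and 1.19 in ICR. Both rest on low gerbil values, 7 FPKM for Tlr2 and 2.6 FPKM for Nfkb2, also listed for 13 and 10 other genes. Cd14 exceeded Tlr4 by a ratio of 7.87 in gerbil and 137 in ICR. The ratio of Nfkbia to Rela was 2.75 in gerbil and 6.01 in ICR, and that of Nod2 to Nod1 was 0.796 in gerbil and 0.446 in ICR. Nlrp3 to Pycard and Irak2 to Irak3 differed least: the second ratio was 1.49 in gerbil and 1.89 in ICR. A ratio shows unequal levels and does not tell which gene of the pair differs.

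**Figure D3:**
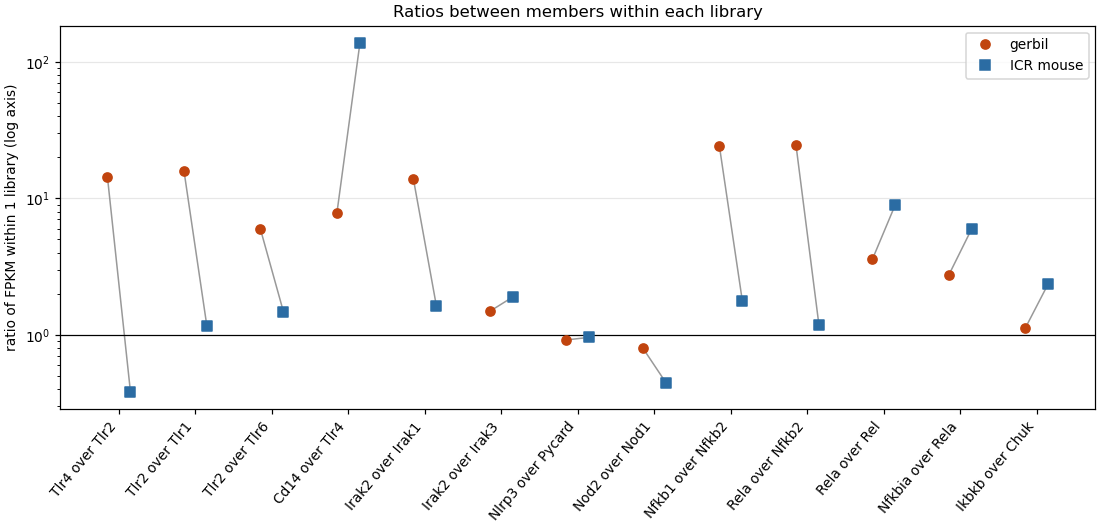
Ratios of FPKM between pairs of genes within each library, on a log axis, gerbil (circle) left of ICR (square), 1 library each. The line at 1 marks equal levels. Tlr4 over Tlr2 lies on opposite sides of that line, at 14.2 in gerbil and 0.383 in ICR, while Nlrp3 over Pycard is nearly the same in both. Gerbil values also listed for other genes are not marked.

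Across the 50 genes the levels in the libraries had a Pearson correlation of 0.58 and a Spearman correlation of 0.43 on log2(FPKM + 1). Over the 11 genes with an own value they were 0.82 and 0.75. Over all 20089 measured genes they were 0.20 and 0.24. For the 44 genes of the set matched with an expectation value of 0, pseudogenes included, they were 0.67 and 0.54. For the 11152 protein-coding genes matched with an expectation value of 0 both were 0.69. These are descriptions across genes, which share a library and are not independent replicates. Against those coding genes, Tlr4 stood at percentile 97.5 and Rel at 94.8. At the other end Tlr1 stood at 0.673, Nlrc5 at 1.67, Tlr6 at 2.04, Nfkb2 at 2.57 and Irak1 at 2.74. Nfkbia, at 43.2, lay near the middle.

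**Figure D4:**
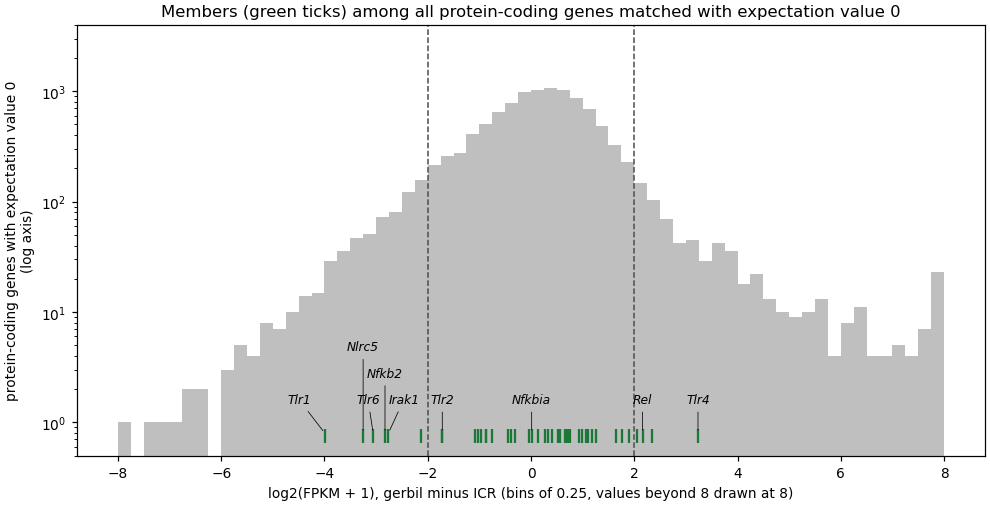
Differences of log2(FPKM + 1), gerbil minus ICR, of the 11152 protein-coding genes matched with an expectation value of 0 (grey, counts on a log axis), with the 42 genes described here that belong to this class as green ticks. Dashed lines mark 4-fold. Tlr4 and Rel lie in the right tail and Tlr1, Nlrc5, Tlr6, Nfkb2 and Irak1 in the left tail, with Nfkbia near the middle.

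Other genes of these pathways were taken from a list of 66 regulators, effectors and substrates chosen for function, of which 61 were measured. By the size rule 1 of them was higher in gerbil and 10 were lower, and the median difference was -0.15. These are 1.64% and 16.4%, beside 25.9% higher and 5.56% lower and a median of 0.87 over all measured genes. With an expectation value of 0 required, 1 of 56 was higher and 8 lower (1.79% and 14.3%), beside 6.1% and 5.99% of the protein-coding genes so matched, whose median was 0.21. The higher gene was Cd36, a scavenger receptor that works with Tlr2 and Tlr4, at 54.5 FPKM in gerbil and 10.8 FPKM in ICR (own value). The next were Ube2v1, a partner of the ubiquitin enzyme of Traf6, at 84.7 FPKM in gerbil and 21.2 FPKM in ICR, and the kinase gene Ikbke, at 37.9 FPKM in gerbil and 14.3 FPKM in ICR on an expectation value of 2e-16. Malt1, the paracaspase, was at 17.8 FPKM in gerbil and 6.87 FPKM in ICR, and Sarm1 at 1.52 FPKM in gerbil and 0.0579 FPKM in ICR.

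The 5 lowest of this list were the interferon regulators Irf7 and Irf3, the nucleic acid sensor Zbp1, the pyrin gene Mefv and the pore-forming Gsdmd. Irf7 was at 2.65 FPKM in gerbil and 54.8 FPKM in ICR, and Irf3, the factor that Ticam1 activates, at 3.73 FPKM in gerbil and 31.7 FPKM in ICR. Zbp1 was at 1.85 FPKM in gerbil and 28.5 FPKM in ICR, and Mefv was listed at 0 in gerbil and at 9.003 FPKM in ICR. Gsdmd, which opens the membrane after caspase cleavage, was at 2.69 FPKM in gerbil and 24.0 FPKM in ICR. None of the 10 lower genes had an own gerbil value. Of the 2 inflammasome products, Il1b was at 1781 FPKM in gerbil and 1222 FPKM in ICR (own value), and Il18 at 6.4 FPKM in gerbil and 42.6 FPKM in ICR (6 other genes at the same gerbil value). Traf6, the ubiquitin ligase below the IRAK kinases, was at 11.1 FPKM in gerbil and 15.9 FPKM in ICR. Ripk2, the kinase of Nod1 and Nod2, was at 2.43 FPKM in gerbil and 4.85 FPKM in ICR. Bcl3, an IkB relative in the nucleus, was at 24.4 FPKM in gerbil and 24.0 FPKM in ICR.

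A list of 62 textbook NF-kB targets, of which 57 were measured, lay on both sides. By the size rule 5 were higher in gerbil and 10 lower (8.77% and 17.5%, beside the same 25.9% and 5.56%), and the median was -0.11, beside 0.87. Il6 was at 30.2 FPKM in gerbil and 1.11 FPKM in ICR, a log2 difference of 3.88. Sod2, the mitochondrial superoxide dismutase, was at 259 FPKM in gerbil and 28.2 FPKM in ICR, and the monocyte chemokine Ccl2 at 213 FPKM in gerbil and 28.6 FPKM in ICR. These 3 had own values matched with an expectation value of 0. Bcl2a1a and Bcl2a1d, near-identical survival genes, were both listed at 20.2 FPKM in gerbil, against 1.85 and 4.01 FPKM in ICR. A further copy in the list, Bcl2a1b, carried the same gerbil value but was at 24.0 FPKM in ICR, a log2 difference of -0.24. Whether a copy passed 4-fold thus followed its ICR value alone, as in the NAIP cluster. The neutrophil chemokine Cxcl2 was at 3646 FPKM in gerbil and 1209 FPKM in ICR, within 4-fold.

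At the low end of the targets, Hif1a was at 1.08 FPKM in gerbil and 87.2 FPKM in ICR on an expectation value of 1e-16. Tnf was at 1.92 FPKM in gerbil and 56.0 FPKM in ICR, with an expectation value of 0 and 30 other genes at the same gerbil value. Lcn2 was at 6.38 FPKM in gerbil and 132 FPKM in ICR, and Csf3, the granulocyte growth factor, at 1.47 FPKM in gerbil and 39.1 FPKM in ICR, both on expectation values above 0. Slc2a6, a sugar transporter of macrophages, was at 0.03 FPKM in gerbil and 13.8 FPKM in ICR. With an expectation value of 0 required, 43 targets remained, of which 5 were higher and 4 lower (11.6% and 9.30%, beside 6.1% and 5.99% of the protein-coding genes so matched).

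**Figure D5:**
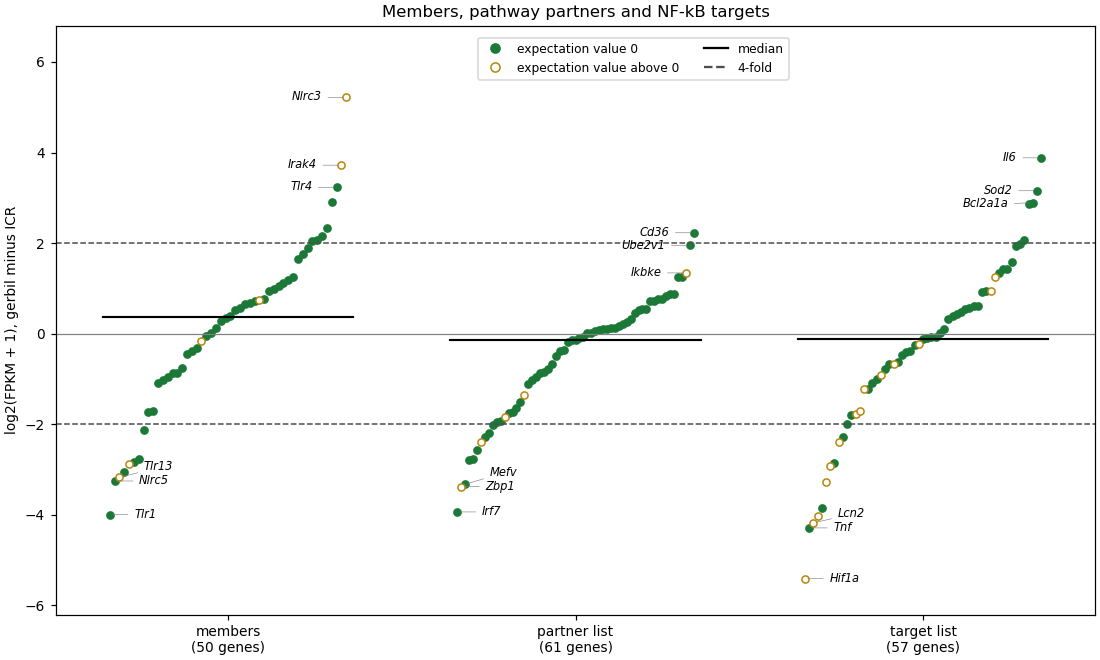
Differences of log2(FPKM + 1), gerbil minus ICR, of the 50 genes described here, the 61 measured genes of the partner list and the 57 of the target list, each in rising order. Filled circles are matched with an expectation value of 0 and open ones with a larger value, black lines are medians (0.37, -0.15 and -0.11) and dashed lines mark 4-fold. The 3 lowest and the 3 highest genes of each list are named.

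Cell type markers give the setting of these values, and their part in the differences was not tested. Of 11 measured monocyte and macrophage markers 5 were above 0 and 6 below, with a median log2 difference of -0.58. They summed to 1478 FPKM in gerbil and 881 FPKM in ICR, but without Itgam (797 FPKM in gerbil and 71.5 FPKM in ICR, expectation value 1e-102) to 682 FPKM in gerbil and 809 FPKM in ICR. Cd68, Lyz2 and Fcgr1 had no gerbil match, and Adgre1, listed under its older symbol Emr1 and not in these sums, was at 13.7 FPKM in gerbil and 35.7 FPKM in ICR. Of 9 measured neutrophil markers 3 were above 0 and 6 below. They summed to 323 FPKM in gerbil and 593 FPKM in ICR, and without the weakly matched Clec4d (expectation value 8e-09) to 321 FPKM in gerbil and 346 FPKM in ICR. These sums leave out S100a8 and S100a9, at 3242 and 4550 FPKM in ICR, and Retnlg, Ngp and Mpo, which had no gerbil match. Of 9 fibroblast markers 4 were above 0 and 5 below. Their sums of 1670 FPKM in gerbil and 3555 FPKM in ICR became 1668 FPKM in gerbil and 1761 FPKM in ICR without Col3a1, which was at 1.37 FPKM in gerbil on an expectation value of 9e-14. Keratinocyte markers summed to 38580 FPKM in gerbil and 34528 FPKM in ICR over 11 genes, with 5 above 0 and 6 below. Tissue labelled dermis thus held keratinocyte RNA in both libraries. Of the keratinocyte markers only Krt14 was listed at 0, in ICR. All 7 measured T and NK cell markers were above 0. Their sums of 111 FPKM in gerbil and 8.67 FPKM in ICR became 39.6 FPKM in gerbil and 8.61 FPKM in ICR without Klrb1c, which was at 71 FPKM in gerbil on an expectation value of 2e-16. Dendritic and Langerhans cell markers had 4 of 6 genes above 0 and a median of 0.59. They summed to 85.2 FPKM in gerbil and 241 FPKM in ICR, but without H2-Ab1 to 32.1 FPKM in gerbil and 11.6 FPKM in ICR. Endothelial markers summed to 37.2 FPKM in gerbil and 22.4 FPKM in ICR over 6 genes, and skeletal muscle markers to 322 FPKM in gerbil and 176 FPKM in ICR over 4. The genes left out of these sums were chosen after seeing the data, as the most different of their list in FPKM. Hair follicle markers summed to 11796 FPKM in gerbil and 3.74 FPKM in ICR over 5, but nearly all of the gerbil sum was a value that Krt73 and Krt75 shared with Krt5 and Krt6a, and Krt71 and Krt73 were listed at 0 in ICR. A gerbil value shared within a list entered its sum once, and markers without a gerbil match were left out of both sums. Among the 5 macrophage markers above 0 was Cd163, at 140 FPKM in gerbil and 10.3 FPKM in ICR. Among the 6 below was Ccr2, at 3.34 FPKM in gerbil and 43.2 FPKM in ICR. Both were matched with an expectation value of 0. Cd14 and Tlr4, both expressed by macrophages, stood beside macrophage markers that lay on both sides of 0.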

How the data were processed

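RNA was sequenced from wounded skin, labelled dermis, of 1 gerbil and 1 ICR mouse library, 3 days after wounding. Values are FPKM as deposited by the authors. Per the file headers, gerbil values were measured after assembly and carry an expectation value. Cufflinks 2.2.1, RSEM 1.2.19, STAR 2.4.0b, CASAVA and the build GRCm38.p2 are named in the submitters' processing notes, without their roles. The names of the assembler and the search program were not given in the sources used here. Assembly and matching applied to gerbil only, so species and method cannot be told apart. Depth is unknown, since no counts were used here, and no interval that needs it is printed.

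Groups were taken from the labels. Of 41214 genes, 221 had no value in either library. A symbol with several entries was represented by the most abundant, and differences used a pseudocount of 1 FPKM, a floor of 1 FPKM in at least 1 library and a 4-fold rule. Gene types and mouse coding sequences came from GENCODE M21, with the longest complete coding sequence of each gene aligned by mafft 7.526. The most shared window without gaps was shown for the Toll-like receptors and NF-kB subunits, and the middle one for the NAIP and NLRP1 genes. Coordinates are gene spans of the deposited table.

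Genes were chosen by name, and the partner, target and marker lists by function, with earlier results of these data known. Every gene of the set with both values is given, those without a gerbil match only at 1 FPKM or more in ICR, with smaller ones counted or summarised. Of the partner and target lists the 5 highest and 5 lowest are named, plus Traf6, Ripk2, Bcl3, Il1b, Il18, Tnf, Il6, Cxcl2 and Ccl2. Other genes of the partner and target lists were named after their values were seen. Counting and scaling were tested on simulated data with large planted changes. The simulation held no genes low in ICR, no weak matches and no gerbil values shared through matching, so it does not test their effect. Python 3.11.15, numpy 2.4.6 and pandas 2.3.3 were used.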

Additional observations from a re-analysis of the deposited data

How the results depend on the processing

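The count of 8 genes higher in gerbil was 3 with a pseudocount of 5 FPKM, 3 with 1 FPKM required in both libraries, 4 under the trimmed mean scaling and 5 under each of the scalings to genes with an own value and to housekeeping genes. It was 2 with own values only, 15 at 2-fold, 3 at 8-fold, and, in alternatives chosen after seeing the data, 4 with 1 gene per shared family value and 4 among protein-coding genes with an expectation value of 0. The count of 8 lower genes was 1 with a pseudocount of 5 FPKM, 4 with 1 FPKM required in both libraries, 0 with own values only and 4 at 8-fold. The median of 0.37 was 0.07 with 1 gene per shared family value and 0.07 where each library had to reach 1 FPKM. It was -0.183 with a floor of 5 FPKM and -0.041 under the trimmed mean scaling. That scaling shifts gerbil down by 0.52 (log2); the scalings to own values and to housekeeping genes shift it down by 0.31 and 0.36.

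In the partner list the 1 higher gene was 2 with a pseudocount of 0.1 FPKM, 0 with a pseudocount of 5 FPKM, under each of the 3 scalings and at 8-fold, and 5 at 2-fold. Its 10 lower genes were 4 with a pseudocount of 5 FPKM, 16 under the trimmed mean scaling, 0 with own values only, 20 at 2-fold and 3 at 8-fold. In the target list the 5 higher genes were 3 with a pseudocount of 5 FPKM, 3 with own values only, 12 at 2-fold and 2 at 8-fold. Its 10 lower genes were 6 with a pseudocount of 5 FPKM, 2 with own values only, 4 with an expectation value of 0 required, 17 at 2-fold, 6 at 8-fold and 4 among protein-coding genes with an expectation value of 0. Fewer genes enter the counts with own values or an expectation value of 0; the cause of the other changes was not tested.

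For single genes, 609 differences were recomputed: 582 kept their side of the rule, 22 no longer passed 4-fold and 5 newly passed it, with none reversed among called genes. Tlr4, Tlr1, Irak4 and Nlrc3 passed 4-fold in every alternative that gave them a value. These alternatives numbered 14 for Tlr4, 12 for Tlr1, 11 for Irak4 and 10 for Nlrc3. Only the other pseudocounts and the scalings changed the difference of these genes. An alternative that only keeps or leaves out genes cannot change the difference of a single gene. Such alternatives are also among the 609, so these counts do not measure robustness. Those that required an own value or the strongest match gave no value for Irak4 or Nlrc3. Whether the gerbil values of Irak4 and Nlrc3 belong to these genes was thus not tested by the alternatives. No paired analysis was possible because neither group holds more than 1 library. Low gerbil values rest on an unknown depth.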

Other observations

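In the partner list 36 of 61 genes were within 2-fold. Among them were 3 of the 4 chaperones that fold Toll-like receptors and move them to their place, a group chosen after its values were seen. Hsp90b1, the chaperone gp96, was at 303 FPKM in gerbil and 207 FPKM in ICR. Its cofactor Cnpy3 was at 24.5 FPKM in gerbil and 21.5 FPKM in ICR, and Cnpy4 at 20.8 FPKM in gerbil and 12.1 FPKM in ICR. Unc93b1, which carries the nucleic acid receptors to endosomes, was at 51.9 FPKM in gerbil and 113 FPKM in ICR, with a log2 difference of -1.10. The gerbil values of Cnpy3, Cnpy4 and Unc93b1 were listed for no other gene.

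The complex that builds linear ubiquitin chains on Ikbkg, and the enzymes that remove them, were also within about 2-fold and were likewise chosen after their values were seen. Rnf31, the catalytic subunit, was at 18.2 FPKM in gerbil and 9.86 FPKM in ICR, Rbck1 at 24.6 FPKM in gerbil and 32.0 FPKM in ICR, and Sharpin at 16.1 FPKM in gerbil and 17.9 FPKM in ICR. Of the deubiquitinases, Cyld was at 7.88 FPKM in gerbil and 3.82 FPKM in ICR, and Otulin at 11.1 FPKM in gerbil and 23.7 FPKM in ICR.

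Among receptors related to Tlr4, also named after their values were seen, Cd180 was at 1.17 FPKM in gerbil and 4.52 FPKM in ICR, and its partner Ly86, a relative of Ly96, was at 3.7 FPKM in gerbil and 20.4 FPKM in ICR. The Cd180 match had an expectation value of 8e-116.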
